A study of Homo sapiens with 8 samples.

Results

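The genes of ribosome biogenesis and RNA polymerase I were followed in HGC27, a human gastric cancer cell line labelled as lacking p53. They are 38 named genes of 25435 in the deposited table: nucleolar proteins, rRNA processing factors, subunits and factors of RNA polymerase I, and MYC. They are members by name, with no threshold on their values. The cells overexpressed GFP, the control, whose p53 label reads null, or 1 of the p53 mutants R175H, R248Q and R273H, per the sample labels. The series title speaks of p53 KO and KD instead; the sample labels were followed and were not checked here against the counts of the overexpressed gene. Each of the 4 groups had 2 mRNA libraries, and every cell was grown in the same medium with no other agent named. The labels do not name the vector, its promoter, the time after its introduction, whether the cells were clones, or whether replicates came from separate cultures. The p-values therefore measure only the spread between these libraries, which may be technical.

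Ribosomes are assembled in the nucleolus. RNA polymerase I transcribes one long precursor of the ribosomal RNAs, small nucleolar ribonucleoproteins (snoRNPs) modify it, and large sets of processing factors cut it and fold it into the small and large subunits. MYC, a transcription factor, activates many genes of this pathway, and the pathway is tied to growth in most proliferating cells, tumour cells included.

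The 8 libraries held 6800463 to 11788035 counts. All 38 genes passed the filter on low counts, as did 13213 genes in all, and the lowest count of any of the 38 in any library was 162 (GAR1). Levels below are CPM, a gene's counts scaled to a common library size after TMM normalisation. Changes are log2 fold changes ± standard error (SE) from edgeR. A change was called where the p adjusted by Benjamini-Hochberg over all 13213 genes was below 0.05. The GFP libraries differed most from each other: the 38 genes had a median absolute log2 difference of 0.087 between them, against 0.034 to 0.058 between the libraries of each mutant. Among the markers of the labelled cell type, 5 epithelial genes (EPCAM, CDH1, KRT8, KRT18 and KRT19) summed to 0.554 to 3.71 CPM and 3 of 4 gastric differentiation genes (TFF1, TFF2 and GKN1) were at 0 in all libraries. Mesenchymal genes (VIM, CDH2, FN1 and COL1A1) summed to 6344 to 7038 CPM, nearly all of it VIM and COL1A1. FN1 was at 33.0 to 45.8 CPM, and CDH2 was near 0, at 0.205 to 0.848 CPM. By the epithelial genes, epithelial identity was not seen in the RNA. Of 5 blood markers, 2 were at 0 in every library and the sum was 1.46 to 3.44 CPM. The 4 endothelial markers summed to at most 0.147 CPM.

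Together the 38 genes took about 1 in 100 counts, and their share was lowest with R175H. It was 1.06% and 1.04% of counts in the GFP libraries, 0.937% and 0.952% with R175H, 0.999% and 0.997% with R248Q, and 1.01% in each R273H library. In summed CPM this was 10433 ± 250 (SD, n = 2) for GFP, 9513 ± 163 for R175H, 9913 ± 11.5 for R248Q and 10115 ± 9.38 for R273H. The R175H mean was 8.82% below that of GFP. Without NCL and NPM1, the most abundant pair, R175H was 6.72% below GFP, while R273H was 0.426% above it.

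Per kilobase of the median annotated transcript, the highest levels averaged over the libraries were those of NCL (2482 CPM per kb), NPM1 (1570 CPM per kb), FBL (486 CPM per kb), NHP2 (439 CPM per kb) and MYC (373 CPM per kb). The lowest were UTP20 (6.14 CPM per kb) and WDR12 (8.04 CPM per kb). The order at the top depended on the transcript: per kilobase of the longest transcript NPM1 (1150 CPM per kb) stood above NCL (460 CPM per kb), since NCL's median transcript is 748 nucleotides long and its longest 4034. Across libraries UBTF was the steadiest, its highest library being 1.05 times its lowest, and UTP20 the least steady, at 1.65 times.

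**Figure D1:**
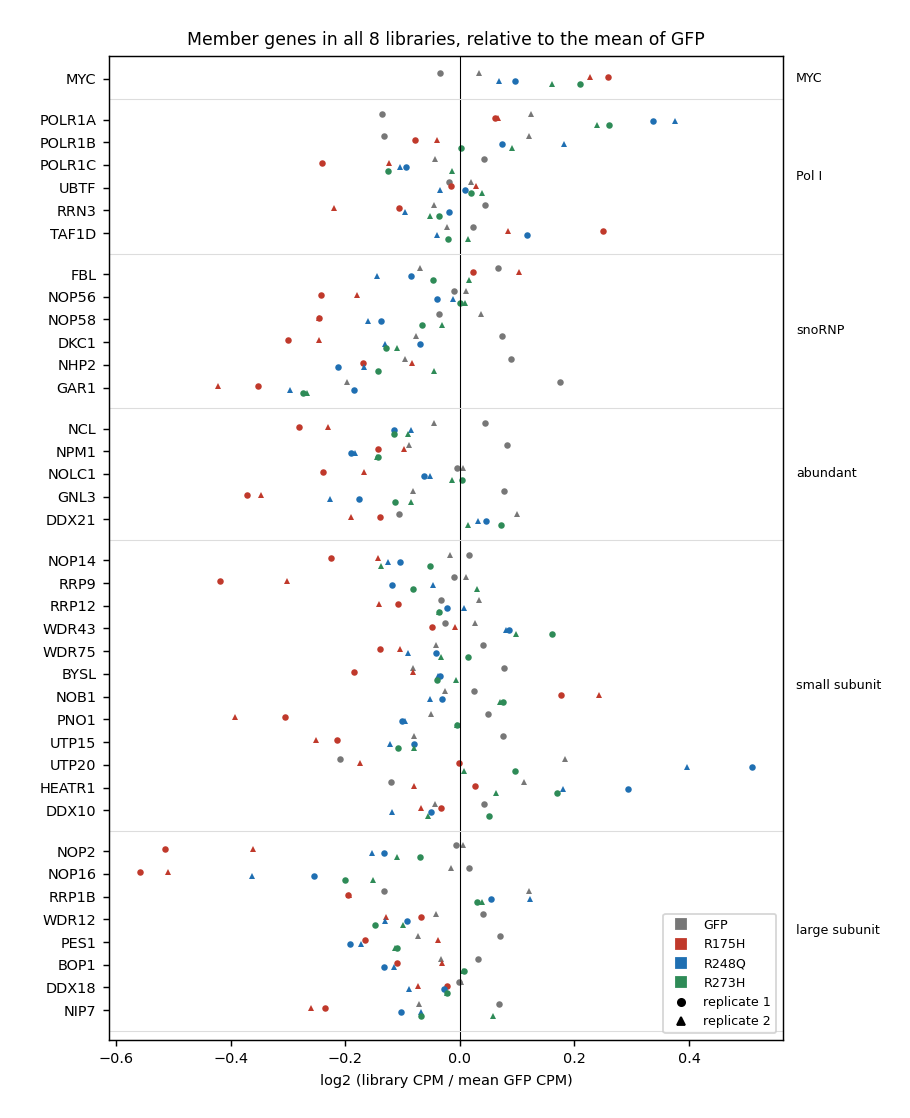
Each of the 38 genes in each of the 8 libraries, as log2 of its CPM over the mean GFP CPM, grouped by role, with circles for replicate 1 and triangles for replicate 2. The R175H libraries lie to the left of zero for most genes, with NOP16 and NOP2 farthest left, and to the right for MYC and NOB1.

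With R175H against GFP, 12 of the 38 genes were lower and 2 were higher. Over all tested genes 4.59% were lower and 6.39% higher. The lower ones were NOP16, NOP2, GNL3, NCL, PNO1, DKC1, RRP9, NOP58, NOLC1, NOP56, GAR1 and NIP7, and the higher ones were MYC and NOB1. The median log2 change of the 38 was -0.13, against 0.01 over all tested genes, and 32 of the 38 had a negative value. For 24 of them both R175H libraries lay below both GFP libraries, a pattern seen in 24.3% of all tested genes, and for 3 both lay above (26.8%). The count leaned on having both R175H libraries: most of the calls were lost without either, and calls over all tested genes fell as well. The median log2 change of the 38 was -0.14 without R175H replicate 1 and -0.15 without R175H replicate 2. Over all tested genes it was 0.009 and 0.008. Without GFP replicate 2 the median log2 change of the 38 was -0.18, against 0.02 over all tested genes. Leaving out any 1 R248Q or R273H library gave a median of -0.13 for the 38, against 0.007 to 0.01 over all tested genes. Calls fell in these fits, among the 38 and over all tested genes. With the R248Q and R273H libraries left out of the fit, 4 were lower (GNL3, PNO1, NOP2 and NOP16) and 0 higher. In that fit 1.46% of all tested genes were lower and 2.74% higher.

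With R248Q against GFP, POLR1A and UTP20 were higher and NOP16 was lower. Over all tested genes 4.88% were higher and 1.44% lower. The median log2 change of the 38 was -0.08, and 29 of the 38 were negative. Both R248Q libraries lay below both GFP libraries for 22 of the 38 (25.6% of all tested genes) and above for 5 (25%). POLR1A, UTP20 and NOP16 were each no longer called without either R248Q library. The median of the 38 was -0.04 without GFP replicate 1 and -0.11 without GFP replicate 2. Over all tested genes it was -0.005 and 0.0005. With R273H against GFP, edgeR called 0 of the 38 genes in either direction, where 0.757% of all tested genes were higher and 0.25% lower. At an unadjusted edgeR p below 0.05 there were 6 of the 38, and 1682 of all 13213 tested genes. DESeq2 and limma-voom each called 0 of the 38, and their median was -0.02 by edgeR. Both R273H libraries lay below GFP for 13 of the 38 (19.3% of all tested genes) and above for 5 (20.1%). Without GFP replicate 2 the median of the 38 with R273H was -0.05, against 0.002 over all tested genes. These 3 comparisons share the GFP libraries, so their values are not independent of each other.

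**Figure D2:**
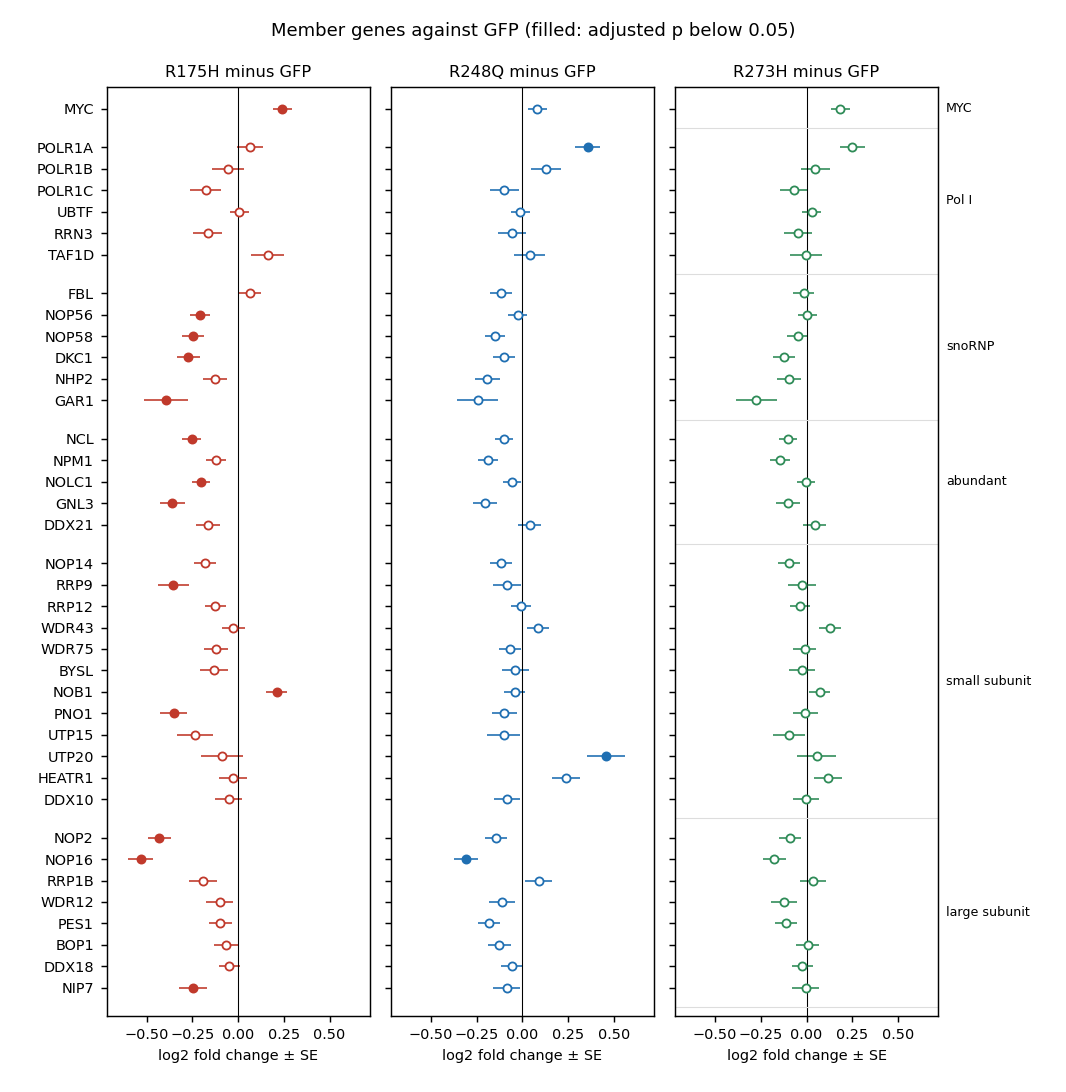
Log2 fold change against GFP (points) with its SE (bars) for each of the 38 genes in R175H, R248Q and R273H; filled points have an adjusted p below 0.05. Of the filled points 14 are in the R175H panel (12 of them left of zero), 3 in the R248Q panel and 0 in the R273H panel.

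MYC was higher with R175H, opposite in direction to most of the other 37 genes. Its CPM was 454 and 476 in the GFP libraries, 556 and 545 with R175H, 498 and 488 with R248Q, and 538 and 520.3 with R273H. All 6 mutant libraries lay above both GFP libraries, and the R175H libraries were the highest. The log2 change was 0.24 ± 0.05 for R175H (adjusted p = 0.00713), 0.08 ± 0.05 for R248Q (adjusted p = 0.365) and 0.19 ± 0.05 for R273H (adjusted p = 0.117). The R175H call was lost without either R175H library and with only R175H and GFP in the fit. It was also lost at a log2 change of at least 0.25.

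MYC binds the E-box, CACGTG, which reads the same on both strands. RefSeq promoter windows, from 250 bases before to 50 after the start of a gene, were matched for 31 of the 38 genes. The E-box was in 9 of the 31 (29%), in 10.1% of 9707 windows of tested genes and in 7.26% of all 35116 windows. It was in the windows of 3 of the 10 matched genes that were lower with R175H (RRP9, PNO1 and NOP2) and in 6 of the 21 others. For 7 of the 9 the E-box lay in the stretch from 40 bases before to 25 after the start; these are printed because RRP9 and PNO1 fell with R175H and UTP20 rose with R248Q, while FBL was called against GFP in none of the 3 comparisons by edgeR as fitted. They run 5′ to 3′ on the gene's strand in the GRCh38.p14 build, which is not the build of the counts, with the E-box in capitals.
FBL, chr19:39846355-39846419, minus strand: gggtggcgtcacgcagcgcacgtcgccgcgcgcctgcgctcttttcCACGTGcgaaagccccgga
NOP14, chr4:2963382-2963446, minus strand: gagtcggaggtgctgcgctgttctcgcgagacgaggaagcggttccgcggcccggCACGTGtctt
RRP9, chr3:51941880-51941944, minus strand: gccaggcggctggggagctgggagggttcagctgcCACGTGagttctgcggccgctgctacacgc
WDR43, chr2:28894627-28894691, plus strand: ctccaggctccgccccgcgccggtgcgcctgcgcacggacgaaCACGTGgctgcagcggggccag
PNO1, chr2:68157848-68157912, plus strand: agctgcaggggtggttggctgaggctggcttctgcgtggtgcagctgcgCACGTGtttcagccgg
UTP20, chr12:101280065-101280129, plus strand: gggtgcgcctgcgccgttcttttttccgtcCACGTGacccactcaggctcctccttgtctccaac
PES1, chr22:30591886-30591950, minus strand: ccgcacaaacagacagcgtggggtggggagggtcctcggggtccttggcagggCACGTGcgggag
A match describes these letters only and is not a bound site. A TATA box (TATAAA, on either strand) was in 1 of the 31 windows (3.23%), against 5.36% of windows of tested genes.

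Of the 6 genes of the polymerase I machinery, 0 were called with R175H, and their median log2 change was -0.02. UBTF, the factor that binds the rRNA gene promoter, varied least of the 38 across libraries: its CPM was 341 and 350.0 with GFP, 342 and 352 with R175H, 348 and 337 with R248Q, and 350.1 and 355 with R273H. The groups overlapped, except that the R273H libraries lay just above those of GFP and R248Q. Its log2 change was 0.01 ± 0.05 (adjusted p = 0.949), -0.01 ± 0.05 (adjusted p = 0.916) and 0.03 ± 0.05 (adjusted p = 0.856) in the same order. POLR1A, the largest subunit of the enzyme, was 185 and 222 CPM with GFP, 213 and 213 with R175H, 257 and 264 with R248Q, and 244 and 240.4 with R273H. The R248Q libraries were the highest, and the GFP libraries were far apart. The log2 change of POLR1A was 0.07 ± 0.07 for R175H (adjusted p = 0.610), 0.36 ± 0.07 for R248Q (adjusted p = 0.00527) and 0.25 ± 0.07 for R273H (adjusted p = 0.117). The R248Q call for POLR1A was lost without either R248Q library and, as described below, once a trend with transcript length was removed. POLR1B, the second largest subunit, POLR1C, a subunit shared with polymerase III, RRN3, which recruits the polymerase, and TAF1D, of the promoter selectivity factor, were called in none of the 3 comparisons with GFP by edgeR as fitted.

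The snoRNP proteins were lower with R175H for 4 of 6, with a median log2 change of -0.23. NOP56, a core protein of the box C/D snoRNPs that guide RNA methylation, was 338 and 343 CPM with GFP, 288 and 301 with R175H, 332 and 338 with R248Q, and 341 and 343 with R273H. The R175H libraries alone stood low, and the log2 change with R175H was -0.21 ± 0.05 (adjusted p = 0.0183). NOP58, its partner in the same particles, was 167 and 175.2 CPM with GFP, 144 in each R175H library, 155 and 153 with R248Q, and 163 and 167 with R273H. Its R175H libraries were the lowest, at a log2 change of -0.25 ± 0.06 (adjusted p = 0.0129). DKC1, the pseudouridine synthase of the box H/ACA snoRNPs, had 263 and 237 CPM with GFP, 203 and 211 with R175H, 239 and 229 with R248Q, and 229 and 232 with R273H. Its log2 change with R175H was -0.27 ± 0.06 (adjusted p = 0.0101). GAR1, another H/ACA protein, was 34.4 and 26.6 CPM with GFP and 23.9 and 22.8 with R175H, a log2 change of -0.40 ± 0.12 (adjusted p = 0.0461). GFP replicate 1 was well above every other library for GAR1, and the call was lost under 12 of 19 alternatives, among them DESeq2, limma-voom and the fit without GFP replicate 1. Over the alternatives the log2 change of GAR1 ran from -0.57 to -0.19, with adjusted p up to 0.369. NHP2, the H/ACA protein not called, had a mean of 259.7 ± 23.5 CPM (SD, n = 2) with GFP and 238 ± 9.93 with R175H. FBL, the methyltransferase of the C/D particles, was not called. It was 375 and 341 CPM with GFP, 364 and 384 with R175H, 337 and 324 with R248Q, and 347 and 362 with R273H, so the GFP and R175H libraries overlapped (0.06 ± 0.06, adjusted p = 0.543). The calls of NOP56, NOP58 and DKC1 were lost without either R175H library and with only R175H and GFP in the fit. Those of NOP56 and NOP58 were also lost at a log2 change of at least 0.25.

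Among 5 abundant nucleolar proteins, 3 were lower with R175H, with a median log2 change of -0.20. NCL, nucleolin, a major RNA-binding protein of the nucleolus, was 2067 and 1944 CPM with GFP, 1650.1 and 1711 with R175H, 1852 and 1891 with R248Q, and 1853 and 1884 with R273H. Its R175H libraries were the lowest of the 8 and its GFP libraries the highest. The log2 change of NCL was -0.26 ± 0.05 for R175H (adjusted p = 0.00356), -0.10 ± 0.05 for R248Q (adjusted p = 0.244) and -0.10 ± 0.05 for R273H (adjusted p = 0.408). The R175H call was lost without R175H replicate 1 and with only R175H and GFP in the fit. NPM1, nucleophosmin, a ribosome assembly chaperone, was 2312 and 2054 CPM with GFP, 1976 and 2039 with R175H, 1912 and 1923 with R248Q, and 1977 and 1975 with R273H. All 6 mutant libraries of NPM1 lay below both GFP libraries, which were themselves far apart, and its log2 change was -0.12 ± 0.06 (adjusted p = 0.178), -0.19 ± 0.06 (adjusted p = 0.0555) and -0.14 ± 0.06 (adjusted p = 0.279). GNL3, nucleostemin, a nucleolar GTP-binding protein, was 138 and 124 CPM with GFP, 101 and 103 with R175H, 116 and 112 with R248Q, and 121 and 124 with R273H. The R175H libraries were the lowest, the log2 change with R175H was -0.36 ± 0.07 (adjusted p = 0.00279), and it was called under all 19 alternatives. NOLC1, a snoRNP chaperone, was 731 and 736 CPM with GFP, 621 and 653 with R175H, 702 and 707 with R248Q, and 736 and 727 with R273H. Again the R175H libraries stood below the rest (-0.20 ± 0.05, adjusted p = 0.0165). The NOLC1 call was lost without either R175H or either R248Q library. It was also lost with only R175H and GFP in the fit, and at a log2 change of at least 0.25. DDX21, an RNA helicase, was 382 ± 38.6 CPM with GFP and 341 ± 8.45 with R175H (SD, n = 2), and was not called.

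**Figure D3:**
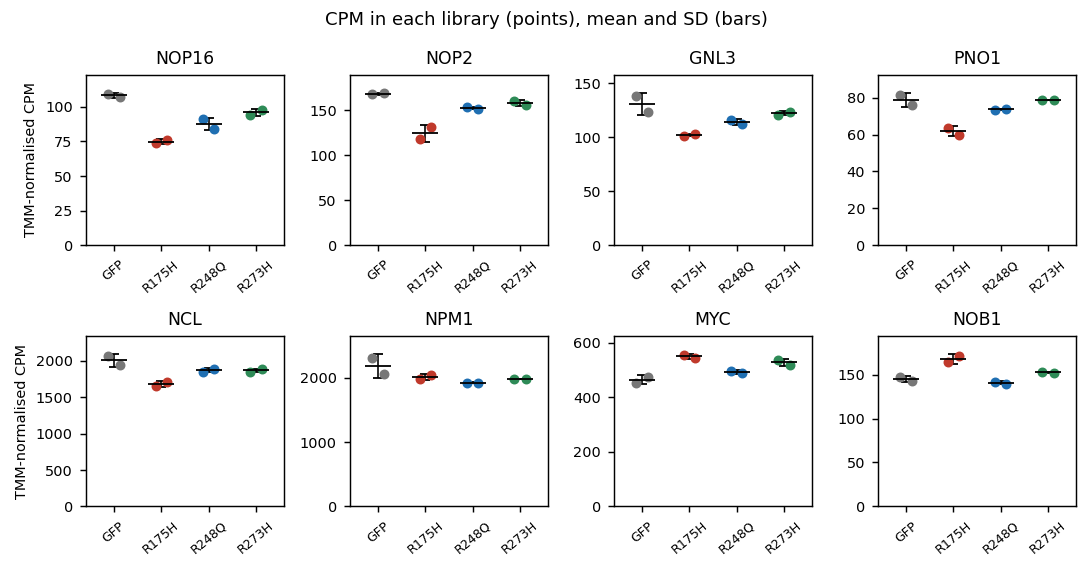
TMM-normalised CPM of 8 genes in each library (points), with the group mean and SD (bars), on axes that start at 0. The R175H libraries lie below all other libraries for NOP16, NOP2, GNL3, PNO1 and NCL and above them for MYC and NOB1, while NPM1 shows no such step.

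Of 12 small-subunit factors, 2 were lower and 1 higher with R175H, and the median log2 change was -0.12. PNO1 and NOB1 act on the same late precursor of the small subunit, NOB1 being the nuclease that makes the final cut of its RNA, yet they changed in opposite directions. PNO1 was 81.5 and 76.1 CPM with GFP, 63.7 and 60.0 with R175H, 73.5 and 73.8 with R248Q, and 78.5 in each R273H library (R175H minus GFP -0.35 ± 0.07, adjusted p = 0.00535). NOB1 was 148 and 142 CPM with GFP, 164 and 172 with R175H, 142 and 139.7 with R248Q, and 153 and 152 with R273H (R175H minus GFP 0.21 ± 0.06, adjusted p = 0.0289). The R175H libraries were the lowest of the 8 for PNO1 and the highest for NOB1. PNO1 was called under every alternative but without R175H replicate 2 (adjusted p = 0.0916), and NOB1 was lost under 10 of 19. RRP9, a protein of the U3 snoRNP, which directs the early cuts, was 55.2 and 56.0 CPM with GFP, 41.6 and 45.1 with R175H, 51.2 and 53.8 with R248Q, and 52.5 and 56.8 with R273H. Its log2 change with R175H was -0.35 ± 0.08 (adjusted p = 0.0122). The call was lost without either R175H library and with only R175H and GFP in the fit.

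UTP20, a very large scaffold protein of the small-subunit processome, was 44.1 and 57.9 CPM with GFP, 50.9 and 45.2 with R175H, 72.6 and 67.1 with R248Q, and 54.5 and 51.2 with R273H. The R248Q libraries stood above the other 6, and the log2 change with R248Q was 0.46 ± 0.10 (adjusted p = 0.0133). The call was lost without either R248Q library and with only R248Q and GFP in the fit. HEATR1, another large scaffold, was 169 and 198 CPM with GFP, 187 and 174 with R175H, 225 and 208 with R248Q, and 206 and 191 with R273H. Its R248Q libraries were the highest, and it was not called against GFP. The other factors of this group, NOP14, RRP12, WDR43, WDR75, BYSL, UTP15 and DDX10, were not called against GFP by edgeR as fitted.

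Among 8 large-subunit factors, 3 were lower with R175H, with a median log2 change of -0.15, and they included the pair with the smallest p of all 38. NOP16, a nucleolar protein of early large-subunit particles, was 109.7 and 107 CPM with GFP, 73.6 and 76.2 with R175H, 90.9 and 84.3 with R248Q, and 94.3 and 97.7 with R273H. No group overlapped another for NOP16, with GFP highest and R175H lowest. Its log2 change was -0.53 ± 0.07 for R175H (adjusted p = 0.000132) and -0.31 ± 0.06 for R248Q (adjusted p = 0.00891). NOP2, an rRNA cytosine methyltransferase, was 167 and 169 CPM with GFP, 118 and 131 with R175H, 153 and 151 with R248Q, and 160.2 and 156 with R273H, and changed by -0.43 ± 0.06 with R175H (adjusted p = 0.00041). NOP16 and NOP2 were called with R175H under all 19 alternatives. The R248Q call for NOP16, in contrast, was lost without either R248Q library and with only R248Q and GFP in the fit. NIP7 was 82.3 and 74.7 CPM with GFP and 66.7 and 65.6 with R175H (-0.25 ± 0.08, adjusted p = 0.0482), and its call was lost under 13 of 19 alternatives. PES1, BOP1 and WDR12 form a complex needed to process the large-subunit RNA, and none of the 3 was called against GFP by edgeR as fitted. PES1 was 269 ± 19.1 CPM with GFP and 251 ± 15.8 with R175H (SD, n = 2). BOP1 was 96.0 ± 3.08 and 91.4 ± 3.47 CPM, and WDR12 69.0 ± 2.79 and 64.4 ± 1.96 CPM, in the same order. The helicase DDX18 was not called against GFP either. RRP1B, a nucleolar protein, was 111 and 132 CPM with GFP, 106 in each R175H library, 126 and 132 with R248Q, and 124 and 125 with R273H. Its R175H libraries were the lowest, but it was not called against GFP.

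R175H was also compared directly with the other mutants. R248Q was above R175H for 7 genes and below it for 1, against 3.22% and 3.95% of all tested genes, and the median log2 difference of the 38 was 0.11. Both R248Q libraries lay above both R175H libraries for 26 genes (28.2% of all tested) and below for 6 (27.8%). The 7 were UTP20 (0.55 ± 0.11), NOP2 (0.29 ± 0.06), POLR1A (0.29 ± 0.07), RRP1B (0.28 ± 0.08), HEATR1 (0.27 ± 0.08), PNO1 (0.25 ± 0.07) and NOP56 (0.18 ± 0.05), with adjusted p from 0.00491 to 0.0455, and the 1 was NOB1 (-0.25 ± 0.06, adjusted p = 0.0135). With the trend with transcript length removed, as described below, POLR1A was no longer called, and the other 6 of the 7 were. All tested genes whose longest transcript has at least 8000 nucleotides had a median difference of 0.11 here. R273H was above R175H for 7 genes and below it for 0, against 1.41% and 2.22% of all tested genes, with a median of 0.12. Both R273H libraries lay above both R175H libraries for 26 genes (24.9% of all tested) and below for 4 (26.4%). These 7 were NOP16 (0.36 ± 0.07), PNO1 (0.35 ± 0.07), NOP2 (0.34 ± 0.06), RRP9 (0.33 ± 0.08), GNL3 (0.26 ± 0.07), NOP56 (0.21 ± 0.05) and NOLC1 (0.20 ± 0.05), with adjusted p from 0.00484 to 0.0413. Between R273H and R248Q edgeR called 0 of the 38, against 0.00757% of tested genes higher and 0.144% lower. Of the 38, 1 had an unadjusted edgeR p below 0.05, as had 1065 of all 13213 tested genes. DESeq2 and limma-voom called 0 of the 38. Both R273H libraries lay above both R248Q libraries for 18 genes (23.6% of all tested) and below for 5 (23%). Most calls against R175H were lost with 1 library fewer in a compared group, and calls over all tested genes fell as well. The median difference of the 38 from R175H then ran from 0.11 to 0.13 for R248Q and was 0.13 for R273H. Over all tested genes it lay between -0.004 and 0.007. Without a library of the mutant not compared, calls also fell, among the 38 and over all tested genes. Leaving out either GFP library keeps the compared groups whole. The median difference of the 38 from R175H was then 0.11 for R248Q and 0.12 for R273H. Over all tested genes it was 0.002 and -0.002.

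Set against all 6 other libraries at once, both R175H libraries were the lowest for 20 of the 38 genes, and for 10.9% of all tested genes. They were the highest for MYC and NOB1, 2 of the 38, and for 12.9% of all tested genes. By group means, R175H was lowest for 25 of the 38 genes, R248Q for 9, GFP for 2 and R273H for 2.

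Transcript length moved with the changes. Over all tested genes, the 1073 whose longest transcript has at least 8000 nucleotides had a median log2 change of 0.27 with R248Q, 0.17 with R175H and 0.14 with R273H, and of 0.25 between GFP replicate 2 and GFP replicate 1. Of the 38 genes, 4 are that long: POLR1A (12749 nucleotides), UTP20 (9025), HEATR1 (8447) and WDR12 (8100). As a description over the 38 genes, which share the same libraries, the log2 change correlated with log2 length at Pearson's r = 0.70 (Spearman's rho = 0.59) for R248Q, 0.23 (0.26) for R175H and 0.47 (0.38) for R273H, genes not being independent replicates. With the trend across all genes removed, the R248Q change was -0.03 for POLR1A (adjusted p = 0.824), and UTP20 and NOP16 were no longer called, while MYC was higher (0.15, adjusted p = 0.0358) and WDR12 lower (-0.33, adjusted p = 0.00769). For R175H the removal gave 20 lower genes and 3 higher (MYC, NOB1 and FBL at 0.13). Over all tested genes the calls rose as well, to 8.63% lower and 7.56% higher. POLR1A was then among the lower at -0.15 (adjusted p = 0.0379). With GFP replicate 1 left out as well, the median log2 change of the 38 was -0.16, against -0.004 over all tested genes. For R273H, MYC was not called as fitted and was called higher after the removal, at 0.22 (adjusted p = 0.00534). Over all tested genes the share called higher with R273H rose as well, from 0.757% to 1.46%.

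**Figure D4:**
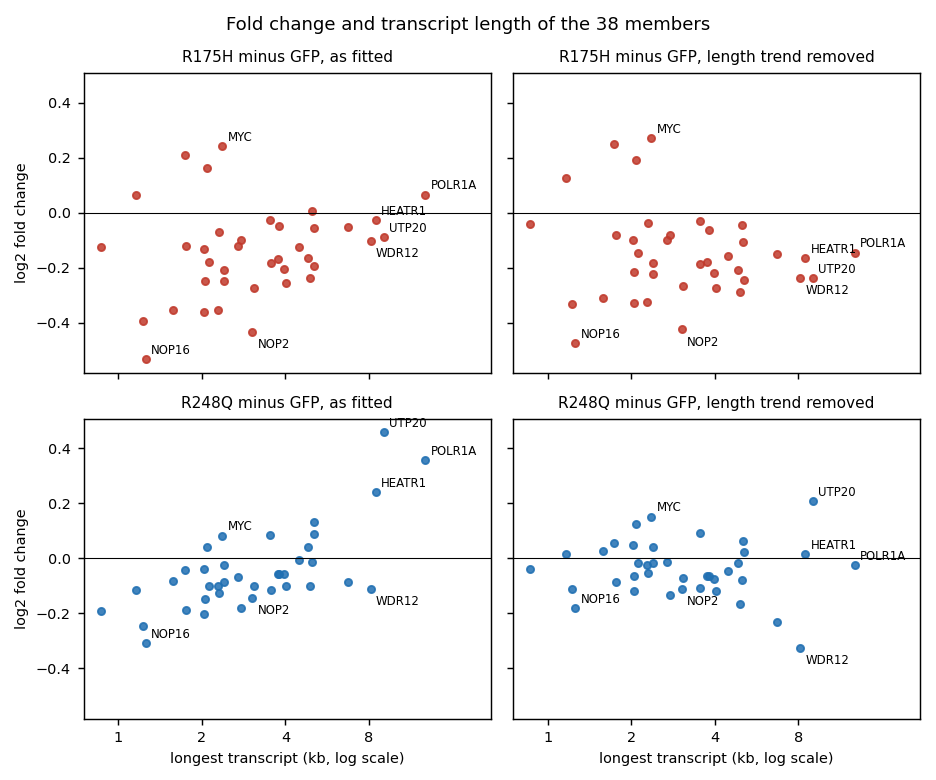
Log2 fold change against GFP of the 38 genes (vertical axis) by the length of the longest transcript in kb (log axis), for R175H (top) and R248Q (bottom), as fitted (left) and with the length trend of all genes removed (right). Before removal the long genes UTP20, POLR1A and HEATR1 are the highest points for R248Q; after it POLR1A is at -0.03, and NOP16 and NOP2 remain the lowest points for R175H.

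Other genes of the pathway were also more often lower than higher with R175H. Of 128 further ribosome biogenesis genes, 29 were lower and 2 higher, with a median log2 change of -0.13. Over all tested genes 4.59% were lower and 6.39% higher. The lower count was 14 with DESeq2 (2.57% of all tested genes) and 3 with only the groups compared (1.46%). They included 3 of 14 polymerase I genes (POLR2F, POLR2K and POLR2L, which polymerases II and III also use), 1 of 10 snoRNP genes (NOP10, -0.31 ± 0.10, and -0.15 and no longer called without GFP replicate 1), 8 of 39 small-subunit genes, 14 of 50 large-subunit genes and 3 of 15 exosome and trimming genes (EXOSC2, EXOSC3 and EXOSC4). Among the small-subunit genes were UTP3 (-0.42 ± 0.09), NOL6 (-0.34 ± 0.06) and RRP7A (-0.28 ± 0.06), all processome components. The 2 higher genes were MDN1, a giant ATPase that remodels large-subunit precursors (0.43 ± 0.10, and 0.26 and no longer called without GFP replicate 1), and NOP53, listed as GLTSCR2 (0.19 ± 0.05). Most of the lower calls were lost without either R175H library, and lower calls over all tested genes fell as well. The median of the 128 was -0.13 without R175H replicate 1, -0.14 without R175H replicate 2 and -0.16 without GFP replicate 2. Over all tested genes it was 0.01, 0.01 and 0.02. With R248Q, 6 of the 128 were lower and 2 higher, against 1.44% and 4.88% of all tested genes, with MDN1 at 1.21 ± 0.09 among the higher. With DESeq2, 0 were lower with R248Q (0.484% of all tested genes). With R273H, 0 were lower and 1 higher, against 0.25% and 0.757%, the 1 again being MDN1 at 0.68 ± 0.10. Without GFP replicate 2 the median of the 128 was -0.12 for R248Q and -0.09 for R273H. Without GFP replicate 1 it was -0.04 and -0.01, and the lower calls with R248Q were lost. MDN1's longest transcript is 18413 nucleotides, and with the length trend removed its change was 0.16 with R175H, no longer called, 0.72 with R248Q and 0.43 with R273H.

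Of 15 genes of the MYC network, 3 were higher with R175H and 0 lower, and 2 were higher with each of R248Q and R273H and 0 lower. Over all tested genes 6.39%, 4.88% and 0.757% were higher in these 3 comparisons. MXI1, a MAX partner that represses MYC targets, rose from a mean of 20.9 to 38.1 CPM (0.86 ± 0.11), MXD4, of the same repressor family, by 0.36 ± 0.06, and MGA, a large MAX partner, by 0.66 ± 0.09. Against R175H, the log2 difference of MXI1 was -0.67 for R248Q and -0.81 ± 0.10 for R273H, each called. MGA, at 14439 nucleotides, was higher with all 3 mutants (0.66, 0.96 and 0.57 for R175H, R248Q and R273H), and after removal of the length trend stood at 0.43, 0.53 and 0.35. TRRAP, a large cofactor of MYC at 12677 nucleotides, was the other gene called with R248Q (0.92 ± 0.12, adjusted p = 0.000215) and with R273H (0.59 ± 0.12, adjusted p = 0.0287), and was not called with R175H (0.38 ± 0.13, adjusted p = 0.0684). The GFP libraries lay far apart for TRRAP, at 83.2 ± 25.1 CPM (SD, n = 2). Without GFP replicate 1 its change was 0.10 with R175H, 0.64 with R248Q and 0.30 with R273H, and with the length trend removed it was 0.18, 0.55 and 0.40, the R175H value not called in either.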

How the data were processed

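The authors deposited raw counts of reads per gene, in whole numbers that sum to 6800463 to 11788035 in a library. Libraries were made with a Kapa mRNA kit, per the labels' protocols, and bcl2fastq and STAR 2.5 on hg19 are named in the submitters' processing notes. No source used here names the counter, annotation, strand setting or filters, so values of overlapping genes and near-identical copies are uncertain. Counts of the overexpressed gene itself are not reported here.

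The 38 genes, their roles and the other lists were chosen with earlier results of these data known. Genes were filtered with filterByExpr (minimum count 10, total 15) and tested with edgeR 4.0.16 (R 4.3.3; TMM, quasi-likelihood test, all 8 libraries, 1 mean per group, 4 residual degrees of freedom). P-values were Benjamini-Hochberg adjusted over 13213 genes in each of the 6 comparisons. SE is the absolute log2 change over the square root of F. The lowest member count was 162, and the common biological coefficient of variation was 4.51%. Code was tested on simulated counts. Given with every library are MYC, NCL, NPM1, FBL, POLR1A and UBTF and the 10 called genes with the smallest p in each comparison; of other lists, up to 3 called genes with the smallest p in each comparison, and MDN1, NOP10 and NOP53 where called. Transcript lengths came from GENCODE 29 (93.3% of tested genes had one), and the length trend was a loess fit (span 0.3, log2 CPM above 3) used as an offset. Alternatives were other size factors and filters, DESeq2 1.42.0, limma-voom 3.58.1, a replicate block, the groups compared alone, a minimum log2 change of 0.25 and leaving out each library.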

Additional observations from a re-analysis of the deposited data

How the results depend on the processing

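Of the 14 genes called with R175H against GFP, GNL3, NOP2 and NOP16 were called under all 19 alternatives, and 0 calls of the other comparisons were. Counts of called members are given as higher and lower. For R175H against GFP they were 1 and 10 with DESeq2, where 3.72% and 2.57% of all tested genes were called. They were 0 and 4 with only the groups compared (2.74% and 1.46%). With the length correction they were 3 and 20 (7.56% and 8.63%), and at a log2 change of at least 0.25 there were 0 higher (5.92%). The shares in parentheses below are likewise those of all tested genes called in the same direction. For R248Q against GFP, members higher were 1 with the length correction (3.01%) and 1 with only the groups compared (2.51%). Members lower were 2 with library size alone (1.32%), 3 with no filter (2.42%), 2 with limma-voom (1.49%) and 0 with only the groups compared (0.491%). For R273H against GFP, members higher were 2 with no filter (2.14%) and 1 with the length correction (1.46%). R248Q was above R175H for 11 members with library size alone (3.67%), 3 with DESeq2 (1.81%), 14 with the length correction (5.77%) and 15 with only the groups compared (9.77%). It was below R175H for 2 with no filter (3.77%) and 3 with only the groups compared (10.1%). R273H was above R175H for 3 with DESeq2 (0.696%), 14 with the length correction (4.21%) and 14 with only the groups compared (4.82%). Between R273H and R248Q, only the groups compared gave 2 higher and 2 lower, and no filter and the length correction without GFP replicate 1 each gave 1 lower. Of the other pathway genes, those lower for R175H against GFP were 14 with DESeq2 (2.57%), 17 with the replicate block (3.19%) and 3 with only the groups compared (1.46%). Those lower for R248Q were 0 with DESeq2 (0.484%), 1 with the block (0.727%) and 0 with only the groups compared (0.491%). Under the length correction these genes were 4 higher and 44 lower for R175H against GFP, with 7.56% and 8.63% over all tested genes. For R248Q against GFP they were 1 and 9 (3.01% and 3.27%), and for R273H 1 and 1 (1.46% and 0.923%). For R248Q against R175H they were 16 and 4 (5.77% and 6.02%), and for R273H against R175H 18 and 2 (4.21% and 4%). POLR1A changed sign with the length correction, to -0.15 for R175H and -0.0256 for R248Q, and to -0.14 and -0.0227 with GFP replicate 1 also left out. Calls over all tested genes also moved under most of these settings. The cause of these shifts was not tested.

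Leaving out each library in turn, members higher and lower ranged over 0 to 3 and 4 to 18 for R175H against GFP, 0 to 7 and 0 to 9 for R248Q, 0 to 5 and 0 to 8 for R273H, 0 to 15 and 0 to 3 for R248Q against R175H, 0 to 16 and 0 to 1 for R273H against R175H, and 0 to 0 and 0 to 1 for R273H against R248Q. The other pathway genes ranged over 0 to 5 and 3 to 51, 1 to 6 and 0 to 34, 0 to 4 and 0 to 16, 1 to 20 and 0 to 7, 0 to 28 and 0 to 3, and 0 to 4 and 0 to 1 in the same order. Where a group was left with 1 library, that library was assumed to vary like the others. Calls over all tested genes rose and fell with the same omissions, so these ranges do not describe the members alone. With plain CPM the members summed to 9976 for R248Q and 10065 for R273H. Per kb of the longest transcript the levels were 460 for NCL, 1150 for NPM1, 305 for FBL, 279.9 for NHP2 and 215 for MYC.

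Replicate differences of 10088 genes correlated between groups at -0.25 to 0.07. Low correlations cannot exclude a shared culture or day, and the labels do not say whether the replicate numbers mark one. A fit with the replicate number as a block called 1 higher and 10 lower members with R175H (4.72% and 3.19% of all tested genes). It called 2 and 1 with R248Q (3.35% and 0.727%) and 0 and 0 with R273H (0.288% and 0.151%). For R248Q against R175H it called 4 and 1 (1.98% and 2.85%), and for R273H against R175H 4 and 0 (0.802% and 1.6%). Between R273H and R248Q it called 0 and 0 (0% and 0.0303%). Each of the 38 genes was counted at least 162 times in every library, and the 2 libraries of each group limit the precision.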

Other observations

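Several of these genes carry small nucleolar RNAs (snoRNAs), the guide RNAs of the same pathway, inside their introns. By GENCODE 29, 7 of the 38 hold at least 1 snoRNA gene on the same strand (18.4%), against 1.57% of 11683 tested genes. They are TAF1D with 8, GNL3 with 6, NOP56 with 5, NOP58 with 4, NCL and WDR43 with 3 each, and DKC1 with 2. Of the 7, GNL3, NOP56, NOP58, NCL and DKC1 were among the 12 of the 38 genes lower with R175H. Over all tested genes 4.59% were lower. TAF1D (46.8 ± 3.78 CPM with R175H and 41.6 ± 0.939 with GFP) and WDR43 (112 ± 2.22 and 114 ± 2.88) were not called (SD, n = 2). Calls among the other tested genes that hold a snoRNA were not counted, and a link between snoRNAs and the change was not tested. The snoRNAs themselves were not analysed here.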
